A study of Mus musculus with 14 samples.

Results

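Lipid droplets store neutral lipid, triglyceride and sterol or retinyl esters, inside a coat of proteins. Perilipins form much of that coat, acyltransferases make the esters, and the lipase encoded by Pnpla2 opens the breakdown of triglyceride. The retinal pigment epithelium (RPE), which takes up lipid from shed photoreceptor tips and keeps vitamin A as retinyl ester, holds such droplets. The genes described here are 9 genes of this machinery, chosen by name, of 42687 genes counted. Storage is represented by 7 genes: the perilipins Plin2, Plin3, Plin4 and Plin5, the diacylglycerol acyltransferases Dgat1 and Dgat2, and the sterol acyltransferase Soat1. Lipolysis is represented by 2 genes, the lipase Pnpla2 and its inhibitor G0s2.

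RPE cells were shaken off enzyme-treated eyecups of mice 3 months of age, and 1 RNA library was made for each of 14 mice from its pooled eyes. KO mice were Best1-Cre+/-; Clic4f/f, in which a Cre driven by the Best1 promoter of RPE cells removes the floxed Clic4, a gene for a chloride intracellular channel protein. The libraries form 3 sets with no library in common: 3 KO and 3 WT (C57BL/6J) mice, 2 KO and 2 Ctrl mice (Clic4f/f, without Cre), and 2 KO and 2 CreCtrl mice (Best1-Cre+/-, no floxed Clic4). Per the paper, the floxed and Cre lines also had the C57BL/6J background, and Ctrl mice were bred as littermates of KO mice. All mice used for RNA-seq were male. Which KO libraries belong to which set was read from the shared style of the sample titles, and every comparison within a set rests on that reading. Each control genotype occurs in 1 set, so the 2 cannot be told apart. Values are CPM, counts scaled to a common library total, corrected by trimmed mean of M values (TMM) within a set, unless another scale is named. A gene is called where edgeR's quasi-likelihood test gives a p-value under 0.05 after adjustment across every gene in the comparison.

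Library totals ran from 9828293 counts in WT replicate 2 to 32384166 in KO replicate 2 of the CreCtrl set, and the WT libraries were the shallowest. Clic4 was lower in KO than WT (log2 fold change -3.32, SE 0.22, adjusted p = 3.33e-05) and 4.46-fold lower than CreCtrl (-2.16, SE 0.36, adjusted p = 0.0132). Against Ctrl it was -1.61 (SE 0.58, adjusted p = 0.333), with both KO libraries below both Ctrl libraries. On a TMM scale over the 14 libraries, mean Clic4 was 225 CPM in WT, 66.7 in Ctrl and 97.1 in CreCtrl. The KO means of these sets were 24.8, 21.8 and 22.1 CPM. The 10 RPE markers, the retinoid isomerase gene Rpe65 among them, had counts in every library. Their summed level was 17413 to 26333 CPM of the total in WT and 65355 to 69576 in the KO libraries of that set. The 10 fibroblast markers, such as the collagen gene Col1a1, summed to 9317 to 9521 CPM in WT and 264 to 723 CPM in those KO libraries. In the Ctrl set RPE markers summed to 43900 to 47912 CPM in controls and 63688 to 66263 in KO. The CreCtrl set had 54132 to 58640 CPM in controls and 64044 to 66554 in KO. Fibroblast markers summed to 1218 to 2653 CPM in Ctrl and 121 to 319 in its KO libraries, and to 1456 to 3096 CPM in CreCtrl and 248 to 312 in its KO libraries. Markers of other cells also differed: against WT, 7 of 8 endothelial, 8 of 9 macrophage and 5 of 5 erythrocyte markers were called lower, where 19.0% of all genes were. The remaining macrophage marker was called higher, where 16.1% of all genes were, and 0 of 8 rod markers were called. In the Ctrl set the summed macrophage markers overlapped, at 933 to 1621 CPM in controls and 812 to 2578 CPM in KO. Against CreCtrl 6 of 8 endothelial, 8 of 9 macrophage, 2 of 5 erythrocyte and 8 of 8 rod markers were called lower, where 12.2% of all genes were. In bulk RNA, fewer cells of a type and less RNA per cell cannot be told apart. The part of the other cells in each result below was not tested, and the members' values on a scale fixed to the RPE markers are therefore given beside those on the TMM scale.

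The 3 genes called higher against WT, Plin2, Plin3 and Soat1, are shown first by the 150 bases before their RefSeq start (GRCm38.p6, minus strand, 5′ to 3′), because they moved together in that set. The letters were searched on both strands for CCAAT (the CCAAT box), GGGCGG (the GC box), TATAAA (the TATA box), CACGTG (an E-box) and AGGTCA (a nuclear receptor half-site). Capitals mark a CCAAT box or GC box.
Plin2, chr4:86670060-86670209: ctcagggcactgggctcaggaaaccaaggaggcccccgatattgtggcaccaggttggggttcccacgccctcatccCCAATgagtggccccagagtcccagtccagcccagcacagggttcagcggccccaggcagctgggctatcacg
Plin3, chr17:56290512-56290661: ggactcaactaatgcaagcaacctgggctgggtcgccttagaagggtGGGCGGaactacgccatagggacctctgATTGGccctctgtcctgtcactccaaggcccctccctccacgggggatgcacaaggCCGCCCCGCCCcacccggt
Soat1, chr1:156474329-156474478: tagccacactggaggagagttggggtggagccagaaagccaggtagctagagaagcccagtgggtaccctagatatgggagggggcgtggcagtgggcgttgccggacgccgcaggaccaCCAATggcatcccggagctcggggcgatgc

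Each of the 3 stretches held a single CCAAT box, beginning 73 bases before the start in Plin2, 75 in Plin3 and 30 in Soat1. Of the 7 members with a RefSeq window, 5 held a CCAAT box in at least 1 window (Plin4 and Plin5 were the others). Among 32851 mouse windows of this length, each counted singly, 24.5% held 1 or more. Plin5 had more than 1 window, and 1 of them held no CCAAT box, so members and windows are unlike units. The Plin3 stretch lies inside the GENCODE span of that gene, 56277476 to 56292873. A GC box was in 4 members, among them Plin3 with 3 matches, of which the last 2 share a base, and Pnpla2 with 2. The background share of the GC box was 28.6%. The TATA box, E-box and half-site letters were in 0 of the 7 members, against 7.57%, 4.3% and 8.58% of all windows. Dgat1 and Dgat2 had no window. A match is a run of letters and not a known binding site.

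Compared per kilobase of exon, which allows levels of different genes to be set side by side, Plin2 led the members in all 7 KO libraries. In the 7 control libraries the highest member was Plin2 in 3, Plin3 in 2, and G0s2 and Pnpla2 in 1 each. On this scale (CPM per kilobase, TMM over the 14 libraries) the medians over all libraries were 33.9 for Plin2, 29.6 for Plin3, 21.1 for Pnpla2, 20.4 for Soat1, 15.9 for G0s2 and 11.9 for Dgat1. Plin4 (4.68), Dgat2 (4.48) and Plin5 (0.139) were lower. Neighbours in this order overlapped in range, except that Dgat1 lay above Plin4 and Dgat2 above Plin5 in 14 of 14 libraries. Plin2 lay above Plin3 in 11 of 14 libraries and Pnpla2 above Soat1 in 9 of 14. Of the perilipins, the widely expressed Plin2 and Plin3 thus led, and Plin4 and Plin5, best known from adipose, muscle and heart, were low. Of the 8 adipocyte markers, Lep was at 0 in 14 of 14 libraries, Adrb3 in 13, Adipoq in 12, Cfd in 10, Cidec in 6, and Plin1 and Car3 in 5 each, while Retn had 1 to 45 counts in every library. The summed level of those 8 markers was 0.0616 to 17.2 CPM in 13 libraries and 136 CPM in Ctrl replicate 2, where Car3, a carbonic anhydrase gene, had 3846 counts.

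**Figure D1:**
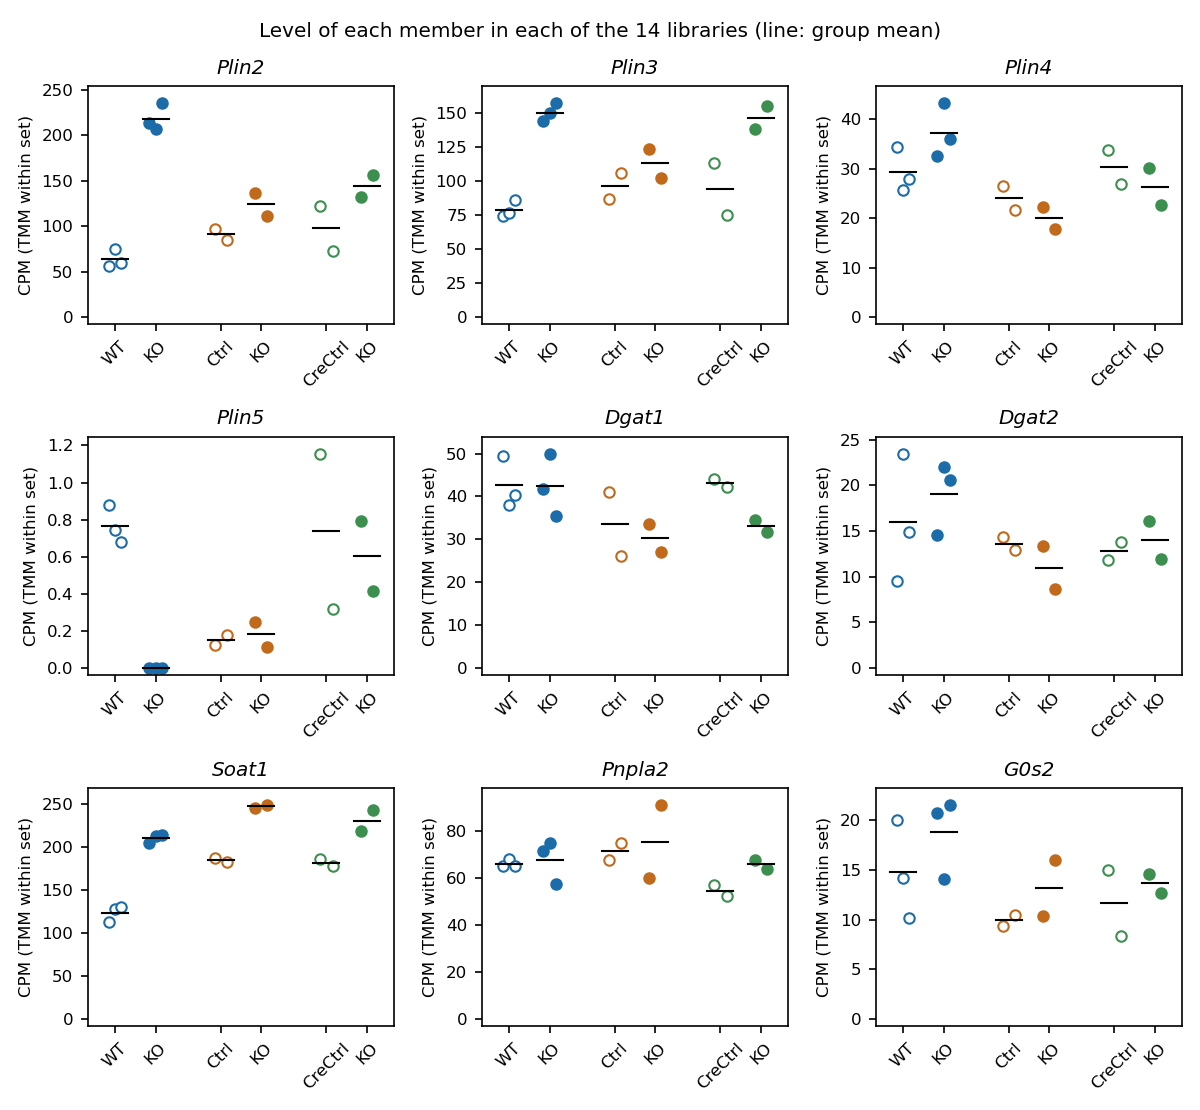
Level of each of the 9 members (CPM, TMM within the set, 1 vertical axis per gene from about 0) in each of the 14 libraries, with open points for controls, filled points for KO and a line at each group mean. The 3 KO libraries of the WT set sit at 206 to 235 CPM of Plin2, above the 55.9 to 74.3 CPM of the WT libraries, and at 0 for Plin5.

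Perilipin 2 (Plin2, ENSMUSG00000028494, chromosome 4, 86648386 to 86670060, minus strand) is the droplet coat protein of most cells outside fat. WT replicates 1 to 3 had 55.9, 74.3 and 59.8 CPM, and the KO replicates of that set 213, 206 and 235 CPM. All KO libraries stood well above all WT libraries, at means of 218 ± 15.05 and 63.4 ± 9.73 CPM (SD, n = 3 each). The fold change was 3.45 (log2 1.78, SE 0.14, 95% interval 1.46 to 2.11, adjusted p = 6.00e-05). The Ctrl libraries had 96.8 and 85.1 CPM and their KO libraries 136 and 111.6 CPM, again without overlap, but the log2 fold change of 0.45 (SE 0.23, 95% interval -0.12 to 1.02) did not pass (adjusted p = 0.588). The CreCtrl libraries had 122 and 72.7 CPM and their KO libraries 132 and 156 CPM. The lower KO library there was just above the higher control, with a log2 fold change of 0.56 (SE 0.25, 95% interval -0.03 to 1.15, adjusted p = 0.143). KO libraries thus lay above their controls in all 3 sets, and the call was made in the WT set. Groups also did not overlap, in either direction, for 52.1%, 41.0% and 71.7% of all genes in the WT, Ctrl and CreCtrl sets.

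Perilipin 3 (Plin3, ENSMUSG00000024197, chromosome 17, 56277476 to 56292873, minus strand) moves between cytosol and nascent droplets. Its level was 73.9, 76.3 and 86.0 CPM in WT and 144, 150 and 157 CPM in KO, with no overlap. The rise was 1.91-fold (log2 0.93, SE 0.12, 95% interval 0.67 to 1.19, adjusted p = 4.27e-04). In the Ctrl set the 2 groups overlapped, at 86.4 and 106 CPM in Ctrl and 123 and 102 CPM in KO (log2 fold change 0.23, SE 0.24, adjusted p = 0.859). In the CreCtrl set both KO libraries, at 138 and 155 CPM, lay above 113 and 74.9 CPM in CreCtrl. That log2 fold change of 0.64 (SE 0.22, 95% interval 0.13 to 1.15) missed the threshold (adjusted p = 0.0779).

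Perilipin 4 and perilipin 5 did not follow. Both lie beside each other on chromosome 17, 1797 bases apart on the minus strand, and Plin3 lies 159879 bases further on. Plin4 (ENSMUSG00000002831, 56100591 to 56109803) had 25.7 to 34.5 CPM in WT and 32.6 to 43.3 CPM in KO, which overlapped. Its log2 fold change was 0.35 (SE 0.19, adjusted p = 0.208) against WT, -0.26 (SE 0.28, adjusted p = 0.869) against Ctrl and -0.20 (SE 0.21, adjusted p = 0.506) against CreCtrl. Exons of Plin4 share 17 bases with Hdgfl2 on the other strand, and whether counting used the strand is not given in the sources used here.

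Plin5 (ENSMUSG00000011305, 56111601 to 56117596), a perilipin of tissues that burn fatty acids, was near the limit of detection. WT libraries had 10, 8 and 9 counts and the 3 KO libraries of that set 0 each, although these were sequenced more deeply. Summed over 6 skeletal muscle markers, a tissue that uses Plin5, WT libraries had 8.78 to 21.8 CPM of the total and all other libraries 0.268 to 3.68 CPM; its part in the Plin5 result was not tested. Against a floor of 3 counts per KO library, 0.185 CPM of the total, Plin5 was at least 4.52-fold lower than the WT mean of 0.836 CPM. The call against WT was close to the threshold (adjusted p = 0.0476) and was lost when any 1 of the 6 libraries was left out (adjusted p = 0.0870 to 0.108). In the other sets Plin5 had 2 to 27 counts in every library, KO libraries included. As CPM of the total, the CreCtrl libraries had 1.21 and 0.354 and their KO libraries 0.765 and 0.371. The WT libraries had 0.728 to 0.965 CPM, and the libraries of the Ctrl set 0.111 to 0.240 CPM. Plin5 was not tested against Ctrl, and against CreCtrl its log2 fold change was -0.33 (SE 0.78, adjusted p = 0.783).

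Soat1 (ENSMUSG00000026600, chromosome 1, 156424525 to 156474331, minus strand) encodes the acyltransferase that makes cholesterol esters in most cells. WT libraries had 113, 128 and 130 CPM and KO libraries 204, 212 and 213 CPM. The tight groups stood apart, with a 1.70-fold rise (log2 0.76, SE 0.11, 95% interval 0.51 to 1.02, adjusted p = 0.00105). Both KO libraries were also above both controls in the Ctrl set, at 245 and 248 against 186 and 182 CPM (log2 fold change 0.42, SE 0.21, adjusted p = 0.562). The same held in the CreCtrl set, at 218 and 242 against 185 and 178 CPM (log2 fold change 0.34, SE 0.16, adjusted p = 0.157). On a TMM scale over the 14 libraries the 7 KO libraries had 208 to 258 CPM of Soat1 and the 7 controls 105 to 193 CPM, a full separation that 3.64% of 16181 genes showed upward and 5.14% downward. No other member separated so: Plin2 had 116 to 235 CPM in KO and 52.0 to 122 CPM in controls.

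The triglyceride enzymes Dgat1 and Dgat2, which add the last acyl chain, gave no call in any set. Dgat1 (ENSMUSG00000022555, chromosome 15, 76502015 to 76511953, minus strand) had 37.9 to 49.5 CPM in WT and 35.5 to 49.9 CPM in KO (log2 fold change -0.01, SE 0.19, 95% interval -0.43 to 0.42). In the CreCtrl set it pointed down: 44.2 and 42.2 CPM in CreCtrl and 34.6 and 31.8 CPM in KO (log2 fold change -0.38, SE 0.15, adjusted p = 0.106). Against Ctrl the value was -0.15 (SE 0.32, adjusted p = 0.951), and Ctrl replicates 1 and 2 themselves differed, at 41.1 and 26.1 CPM. Dgat2 (ENSMUSG00000030747, chromosome 7, 99153658 to 99182719, minus strand) varied more among WT mice, from 9.52 to 23.4 CPM, than its group means differed. Its log2 fold changes were 0.26 (SE 0.35), -0.31 (SE 0.37) and 0.13 (SE 0.24) against WT, Ctrl and CreCtrl.

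The lipase gene Pnpla2 (ENSMUSG00000025509, chromosome 7, 141455198 to 141460743, plus strand) gave no call in any set. Its level was 65.0, 68.1 and 65.2 CPM in WT and 71.3, 74.7 and 57.6 CPM in KO, with a log2 fold change of 0.04 (SE 0.14, 95% interval -0.28 to 0.35, adjusted p = 0.869). It was 0.08 (SE 0.27, adjusted p = 0.971) against Ctrl, where the KO replicates lay apart at 59.8 and 91.0 CPM. Against CreCtrl it was 0.27 (SE 0.14, adjusted p = 0.204). Both KO libraries there, at 67.8 and 64.0 CPM, lay above both controls, at 56.8 and 52.5 CPM. Groups of that set did not overlap for 71.7% of all genes. G0s2 (ENSMUSG00000009633, chromosome 1, 193272161 to 193273217, minus strand), whose product inhibits that lipase, had log2 fold changes of 0.34 (SE 0.32), 0.41 (SE 0.37) and 0.22 (SE 0.30) in the same order. All were above 0 and inside the spread between mice: WT libraries alone ran from 10.2 to 20.003 CPM and KO libraries of that set from 14.1 to 21.5 CPM.

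**Figure D2:**
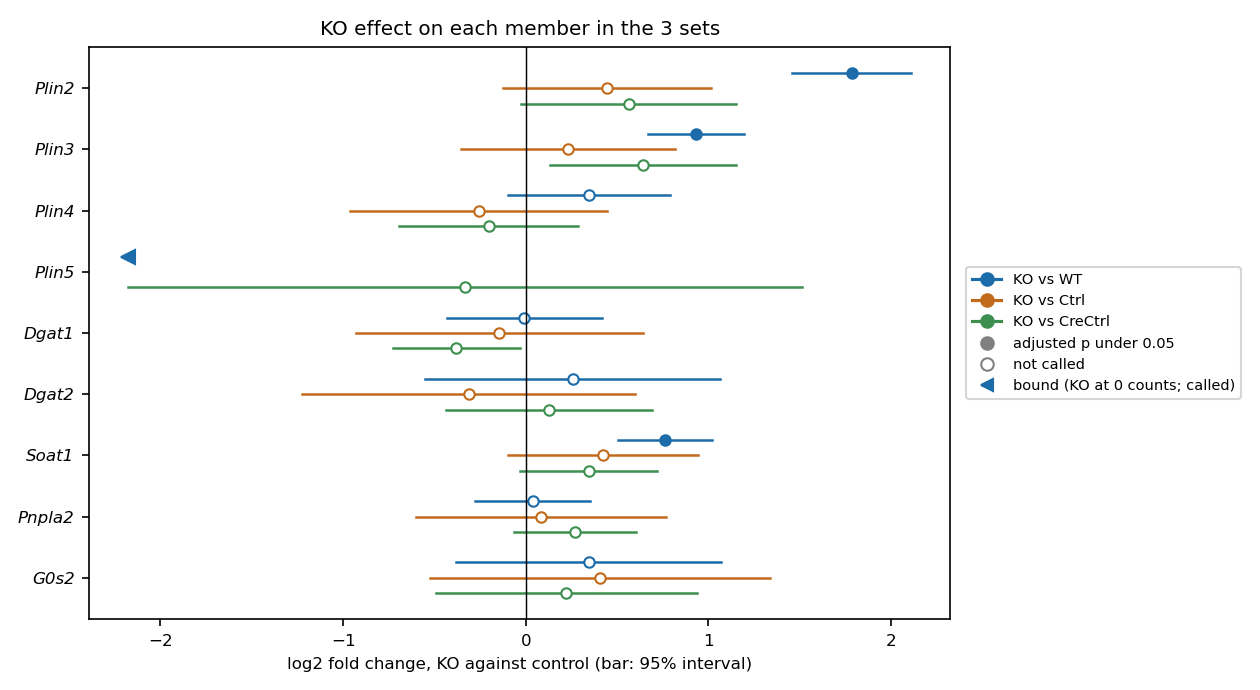
Log2 fold change of KO against the control of its own set for each of the 9 members, with bars for the 95% interval and filled points for an adjusted p under 0.05; the triangle is the bound for Plin5 against WT, and Plin5 against Ctrl was not tested. Plin2 at 1.78, Plin3 at 0.93 and Soat1 at 0.76 against WT are the filled points, and the points of the Ctrl and CreCtrl sets are all open.

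Counted over the members, 4 of 9 were called against WT, 3 higher and 1 lower, where 35.1% of 15428 genes were called, 16.1% higher and 19.0% lower. The WT and KO groups did not overlap for 4 of 9 members, against 52.1% of all genes. Both counts are 44.4% of the members, which lies between these shares of all genes, so neither is a result about the members as a group. Their median log2 fold change was 0.34, also with Plin5 at its bound, against -0.08 over all genes. Against Ctrl 0 of 8 members tested were called and 0 had an unadjusted p under 0.05. There edgeR called 0 (0%) of 15287 genes, with 1846 at an unadjusted p under 0.05, and DESeq2 called 1111 genes but no member. The groups did not overlap for 2 of 8 members, against 41.0% of genes. Against CreCtrl 0 of 9 members were called, where 15.8% of 15963 genes were, 3.60% higher and 12.2% lower; 2 members, Plin3 and Dgat1, had an unadjusted p under 0.05. Groups did not overlap for 5 of 9 members and 71.7% of genes. DESeq2 called Plin3 there (log2 fold change 0.65, adjusted p = 0.0278). Without CreCtrl replicate 1, the control library with the higher Plin2 and Plin3, edgeR called both, at 0.98 (adjusted p = 0.00751) and 0.96 (adjusted p = 0.00712). Without CreCtrl replicate 2 the values fell to 0.20 (adjusted p = 0.499) for Plin2 and 0.34 (adjusted p = 0.244) for Plin3, so the choice of control library decides both.

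Over all 14 libraries, with set as a covariate, Plin2, Plin3 and Soat1 were called higher in the 7 KO libraries, which is 3 of 9 members against 20.1% of 16181 genes called higher, 18.6% lower and 38.7% in all. Plin2 was 2.15-fold higher (log2 1.10, SE 0.23, adjusted p = 0.00223), Plin3 1.63-fold (log2 0.71, SE 0.14, adjusted p = 0.00168) and Soat1 1.52-fold (log2 0.60, SE 0.10, adjusted p = 6.32e-04). These calls were not made without the WT set, in a fit that also has fewer libraries. With the Ctrl and CreCtrl sets alone (4 KO and 4 controls, a choice made after seeing the data) 0 of 8 members were called, where 6.66% of 15831 genes were, 0.493% higher and 6.17% lower. Plin2 then had a log2 fold change of 0.49 (adjusted p = 0.123), Plin3 of 0.42 (adjusted p = 0.158) and Soat1 of 0.37 (adjusted p = 0.0548).

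Whether the KO effect differed between sets was tested directly, in a fit of the 14 libraries as 6 groups. The Plin2 effect was larger in the WT set than in the Ctrl set by 1.48 on the log2 scale (SE 0.29, adjusted p = 0.0166) and than in the CreCtrl set by 1.33 (SE 0.29, adjusted p = 0.0420). It was the 1 member of 9 called in each of these tests, against 5.15% and 1.49% of 17662 genes. Between the Ctrl and CreCtrl sets 0 members and 0% of genes were called by edgeR, with 1545 genes at an unadjusted p under 0.05 and 0.651% of genes called by DESeq2. Plin3 differed by 0.84 (SE 0.25, adjusted p = 0.0676) between the WT and Ctrl sets and by 0.40 (SE 0.25, adjusted p = 0.503) between the WT and CreCtrl sets. Soat1 differed by 0.48 (SE 0.17, adjusted p = 0.119) and 0.53 (SE 0.17, adjusted p = 0.147) in the same order, also without a call. The Plin2 difference between the WT and Ctrl sets was not called without Ctrl replicate 2 (1.49, adjusted p = 0.0560) or without KO replicate 2 of the Ctrl set (1.35, adjusted p = 0.0873). The difference to the CreCtrl set was called in 1 of 10 fits with a library left out, that without CreCtrl replicate 2 (1.67, adjusted p = 0.0155). In the other 9 the adjusted p ran from 0.0555 to 0.266, and the lowest estimate, 0.90, came without CreCtrl replicate 1.

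Set against the RPE markers of the same library, the members read differently, because those markers rose too: 9 of 10 were called higher against WT, with a median log2 fold change of 1.43. On this scale each member's log2 count is taken relative to the mean log2 count of the 10 markers, which lowers all changes of a set by about the same amount. Plin2 was then higher in KO by 0.21 (WT set), 0.30 (Ctrl set) and 0.32 (CreCtrl set), with overlapping libraries in each. In the refit on this scale its effect was not called as different between the WT and Ctrl sets (-0.07, adjusted p = 0.910) or the WT and CreCtrl sets (-0.11, adjusted p = 0.845). The medians of all genes for these differences moved alike, from 0.14 to -1.43 and from 0.09 to -1.34, so Plin2 lay above the typical gene on both scales. Plin3 turned to -0.65 and Soat1 to -0.82 in the WT set, with all KO below all WT libraries, while Plin3 stayed at 0.38 in the CreCtrl set with both KO libraries above. Refitted with libraries scaled to the RPE markers, 8 of 9 members were called lower against WT and 0 higher. That was also true of 72.2% and 0.583% of all genes (72.8% in all), whose median moved from -0.08 to -1.68. Plin2 was the exception, at 0.19 (SE 0.24, adjusted p = 0.479). With the same scaling 0 members were called against Ctrl (5.01% of genes, all lower), 1 against CreCtrl (Dgat1, -0.67, adjusted p = 0.0366, beside 20.3% of genes, 19.3% lower and 0.977% higher) and 4 over all sets (Plin4, Dgat1, Dgat2 and Pnpla2, beside 46.6% of genes, 46.1% lower and 0.488% higher). The KO effect then differed between the WT and Ctrl sets for 3 members (44.1% of genes, 1.03% higher and 43.1% lower) and between the WT and CreCtrl sets for 4 (35.5%, 0.159% higher and 35.4% lower), Plin2 in neither. Within a set the shift is nearly the same for every gene. The signs of Plin2, Plin3 and Soat1 on this scale thus show whether their TMM-scaled changes exceeded that shift. They are not a second measurement of these genes, and the part of other cells was not tested.

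**Figure D3:**
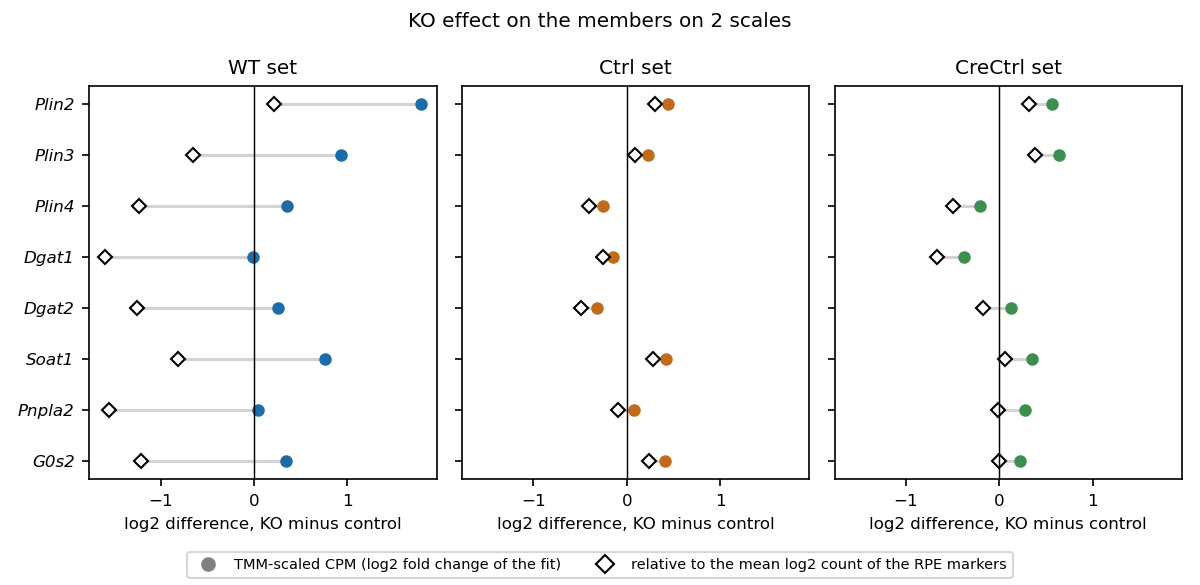
KO minus control on the log2 scale for 8 members (Plin5, at 0 counts in 3 libraries, is left out) in each of the 3 sets, as the fitted TMM-scaled fold change (filled circles) and relative to the mean of the RPE markers (open diamonds). In the WT set the diamonds lie far to the left, with Plin2 the 1 member right of 0 at 0.21, and in the other sets circles and diamonds lie close together.

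The balance of storage over lipolysis was described as the ratio of each storage gene's counts to those of Pnpla2 in the same library, which no library scaling changes. Because it is a ratio within a library, it shows unequal change and not which gene changed. Pnpla2 is also not the only gene of lipolysis. Against WT, Mgll (log2 fold change 1.02) and Abhd5 (0.83) were called higher, and Lipe (0.10) was not called. Plin2 per Pnpla2, on the log2 scale, was -0.07 ± 0.18 (SD, n = 3) in WT and 1.69 ± 0.30 (SD, n = 3) in KO, a rise of 1.76 with all KO libraries above. In the Ctrl set it was 0.35 ± 0.23 and 0.74 ± 0.63 (SD, n = 2 each) and in the CreCtrl set 0.79 ± 0.45 and 1.12 ± 0.23 (SD, n = 2 each), with overlap in both. KO libraries minus controls, Plin3 per Pnpla2 differed by 0.90, 0.18 and 0.40 in the WT, Ctrl and CreCtrl sets. Soat1 per Pnpla2 differed by 0.74, 0.37 and 0.07. With Pnpla2, Lipe, Mgll and Abhd5 together as denominator, the differences of all storage genes in the WT set were lower, so these rises depend on the denominator.

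Relative to Pnpla2, Dgat1 was not higher in KO in any set. Plin4 and Dgat2 were higher in the WT set alone, with overlapping libraries. Other genes of triglyceride formation were not set against Pnpla2. On the TMM scale, 7 of 16 glycerolipid synthesis genes were called higher against WT and 1 lower. Dgat1 per Pnpla2 differed by -0.04, -0.17 and -0.65 in the WT, Ctrl and CreCtrl sets. In the CreCtrl set all KO libraries lay below, at -0.99 ± 0.03 against -0.34 ± 0.04 (SD, n = 2 each). Plin4 per Pnpla2 differed by 0.32, -0.31 and -0.48 and Dgat2 by 0.30, -0.40 and -0.16. The median of the 7 storage genes relative to Pnpla2 differed by -0.03, -0.17 and -0.65, but Dgat1 was itself that median in 13 of 14 libraries, so these values restate Dgat1 and describe no common shift of the storage genes. G0s2 per Pnpla2 differed by 0.34, 0.32 and 0.01.

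**Figure D4:**
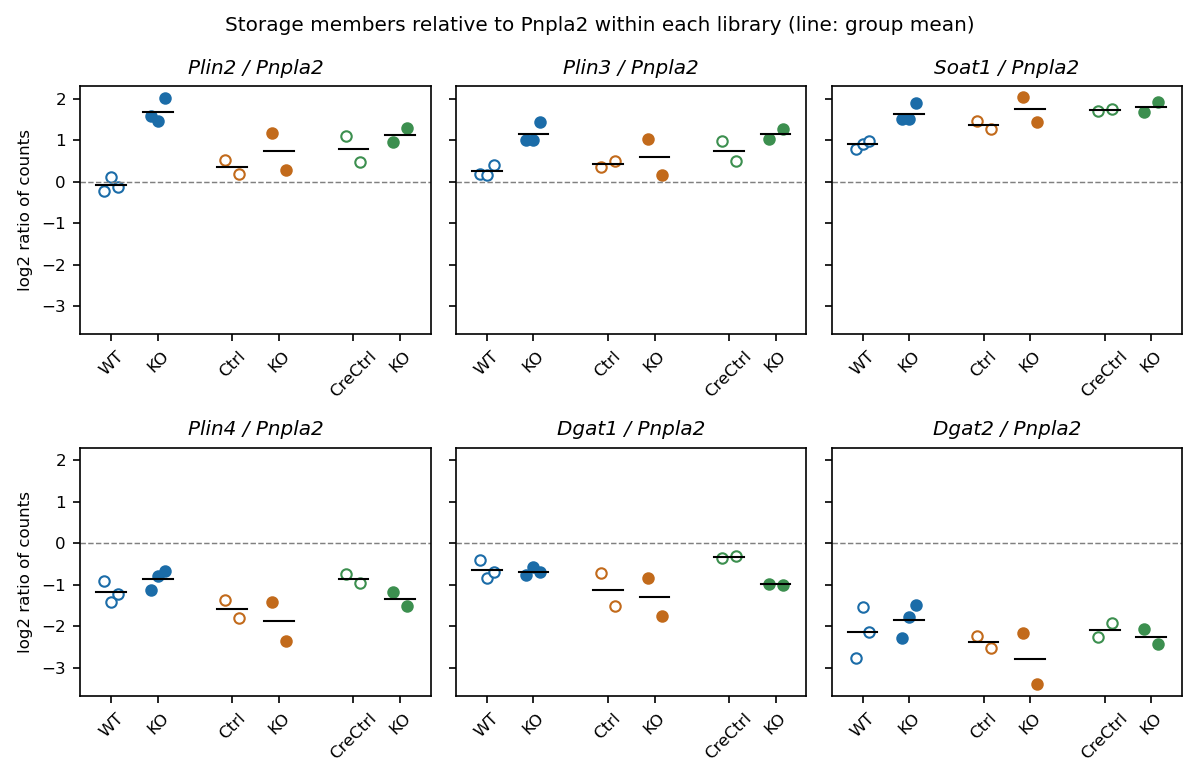
Log2 ratio of the counts of 6 storage members to those of Pnpla2 within each of the 14 libraries (open: control; filled: KO; line: group mean; dashed line: equal counts). In the WT set Plin2 per Pnpla2 moved from a mean of -0.07 to 1.69, whereas Dgat1 per Pnpla2 in the CreCtrl set moved from -0.34 to -0.99.

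Other genes of droplet metabolism were counted from 4 lists. Of 16 glycerolipid synthesis genes, all tested against WT, 7 were called higher and 1 lower (median log2 fold change 0.54), beside 16.1% and 19.0% of all genes. Gpam, the mitochondrial enzyme of the first acylation step, rose by 2.61 (SE 0.20, adjusted p = 4.84e-05) and was called against CreCtrl as well (1.04, SE 0.23, adjusted p = 0.0298). Against Ctrl it was 0.24 (SE 0.43, adjusted p = 0.935). The monoacylglycerol acyltransferase Mogat1 rose by 2.34 (SE 0.15) and the acyl-CoA synthetase Acsl6 by 1.47 (SE 0.18), while its relative Acsl5 fell by 2.15 (SE 0.24). Acsl5 was below 0 in the other sets too, at -1.52 (adjusted p = 0.300) against Ctrl and -1.10 (adjusted p = 0.0566) against CreCtrl.

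Of 15 droplet assembly and coat genes, 11 were tested against WT and 1 was called: Cideb, which acts on droplets and lipoproteins, higher by 1.67 (SE 0.38, adjusted p = 0.00954). Of 12 lipolysis and ester hydrolysis genes, 11 were tested, 3 were called higher and 1 lower (median 0.10). With 35.1% of all genes called, this count is no result about the list. The monoacylglycerol lipases Abhd6 and Mgll rose by 1.24 (SE 0.17) and 1.02 (SE 0.20), and Abhd5, the protein that activates the Pnpla2 lipase, rose by 0.83 (SE 0.13, adjusted p = 0.00170). Ces1d, a carboxylesterase with close copies among which reads may have been shared, fell by 2.68 (SE 0.56). Of 4 genes of sterol and retinyl ester formation, 2 were tested and Lrat, which makes retinyl esters and is also in the RPE marker list, was called at 2.71 (SE 0.17, adjusted p = 3.16e-05). Lrat was called against CreCtrl too, at 1.26 (SE 0.30, adjusted p = 0.0364). The median of all genes against WT was -0.08 beside these.

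Against Ctrl none of the genes of the 4 lists was called by edgeR, and 4 had an unadjusted p under 0.05. Against CreCtrl 3 of 43 genes tested were called higher and 2 lower, which is 11.6% beside 15.8% of all genes (3.60% higher, 12.2% lower). Besides Gpam and Lrat these were Fitm2, which helps droplets to form (0.70, adjusted p = 0.0416), the lipase-family gene Pnpla3 (-0.95, adjusted p = 0.0272) and Lcat (-1.99, adjusted p = 0.0144), all 3 named after their values were seen.

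The genes whose level was most like that of Plin2 over the 14 libraries, among 9977 genes with a mean of at least 10 CPM, were Grpel1 (Pearson r of log2 CPM 0.979), Pomp (0.978), Mrps34 (0.977), Trappc3 (0.973) and Nedd8 (0.973). Among the members Plin3 came closest (r 0.938, rank 98), followed by Soat1 (0.788, rank 1329) and G0s2 (0.510), while Pnpla2 (0.271) and Dgat1 (0.06) varied largely apart from it. The RPE marker Rlbp1, a retinal-binding protein gene, had r 0.925 and Rpe65 0.839. These libraries share sets, depth and cell content, so the correlations are a description.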

How the data were processed

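RNA-seq counts from 14 mouse RPE libraries were used. Per the paper's methods and the submitters' processing notes, the authors sequenced stranded poly(A) libraries on a NovaSeq and aligned the reads to GRCm38 with STAR 2.5.2. The deposited table holds raw counts per Ensembl gene, without normalization. The counting tool's role, its strand setting and the annotation release are not given in the sources used here. The notes also name HTSeq 0.11.2, Cufflinks 2.1.1 and bcl2fastq 2.19. No column went unused.

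Gene names, exon lengths and positions came from GENCODE M21 (GRCm38), which holds 42329 of the 42687 genes. KO was compared with the controls of the same set by edgeR 4.0.16 (quasi-likelihood test, TMM, filterByExpr, Benjamini-Hochberg adjustment over all genes tested), in R 4.3.3. DESeq2 1.42.0, the study's tool, was an alternative, with other scalings, filters, left-out libraries and a replicate block. The test scripts were checked on simulated counts. Ratios used a pseudocount of 0.5 counts. Intervals are 95%, and floors of 3 counts cover counting error only. Totals of 9828293 to 32384166 counts set the precision: 3 counts are 0.305 and 0.0926 CPM at these depths.

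The 9 members were chosen by name, and members, gene lists and marker lists were chosen with earlier results of these data known. From each of the 4 lipid lists, up to 4 genes were named with the largest change among those called against WT whose groups did not overlap, plus any called in at least 2 sets. The 5 genes most like Plin2 were named by Pearson correlation. Libraries of a group differed beyond sampling noise for 51.3% to 71.7% of genes, so none was counted as a duplicate. Promoter stretches are from RefSeq (GRCm38.p6), which gave windows for 7 of 9 members. Versions of other tools were Python 3.11.15, numpy 2.4.6, pandas 2.3.3 and matplotlib 3.10.9.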

Additional observations from a re-analysis of the deposited data

Results flagged for a closer look

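The KO effect on Plin2 differed between sets by a direct test of the difference. It was larger in the WT set than in the Ctrl set by 1.48 and than in the CreCtrl set by 1.33 on the log2 scale. In the WT set the control libraries had the lowest RPE marker sums of all groups, 17413 to 26333 CPM of the total, and the highest fibroblast marker sums, 9317 to 9521 CPM. Their part in the difference was not tested. On the TMM scale over 14 libraries, mean Plin2 was 58.4 CPM in WT, 94.5 in Ctrl and 97.2 in CreCtrl. The KO means of these sets differed too, at 222, 129 and 147 CPM. RPE markers summed to 63688 to 69576 CPM of the total in the 7 KO libraries. Scaled to the RPE markers the differences in KO effect on Plin2 were -0.07 and -0.11, beside medians of -1.43 and -1.34 over all genes. Those medians had been 0.14 and 0.09 on the TMM scale. No member, nor Clic4, had a library far from the rest among the 7 KO libraries by Dixon's test, which by chance marks about 1 in 20 groups (10 genes looked at). That test looks at 1 extreme library and cannot mark a whole set that stands apart. For Plin2 the KO libraries had 213 to 235 CPM in the WT set, 116 to 142 in the Ctrl set and 137 to 157 in the CreCtrl set.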

How the results depend on the processing

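Depth and group size limit these results: 3 libraries a group in the WT set and 2 in the others, and at most 27 counts of Plin5 in any library. The count of members called against WT stayed at 3 or 4 of 9, always with Plin2, Plin3 and Soat1, under 13 of 14 alternatives, and was 8 with libraries scaled to the RPE markers. That scaling moved the median of all genes against WT from -0.08 to -1.68, and with it the signs of Plin3 (-0.66), Plin4 (-1.29), Dgat2 (-1.29), Soat1 (-0.83), Pnpla2 (-1.58) and G0s2 (-1.34) against WT, Pnpla2 (-0.080) against Ctrl, and Dgat2 (-0.17), Pnpla2 (-0.018) and G0s2 (-0.035) against CreCtrl. Those sign changes follow from the shift of all genes. Over all sets (median -0.89) the signs also changed for Plin3 (-0.15) and Soat1 (-0.27), and 4 other members were called. For members near 0 the sign also turned with library size alone (Pnpla2 -0.21 against WT and -0.031 against Ctrl, Dgat2 -0.089 against CreCtrl), with every gene of at least 1 count (Dgat1 0.07), with at least 10 counts in every library (Pnpla2 -0.00095) and in the 6-group fit (Dgat1 0.13); the cause was not tested. Library size alone moved the median of all genes against WT to -0.32. With a library left out, fold changes against WT ran from -0.085 to 0.19 for Dgat1 and from -0.0037 to 0.64 for Dgat2. Against Ctrl they ran from -0.44 to 0.22 for Dgat1 and from -0.25 to 0.35 for Pnpla2. Against CreCtrl they ran from -0.95 to 0.91 for Plin5, from -0.16 to 0.71 for G0s2 and from -0.084 to 0.34 for Dgat2. Members called against CreCtrl were 0 to 2 with a library left out, 2 with every gene of at least 1 count, and 1 each by DESeq2 (Plin3), by library size alone (Dgat1) and by the RPE scaling (Dgat1). Members whose effect differed between the WT and Ctrl sets were 0 to 2 with a library left out, 2 with every gene of at least 1 count and 3 by the RPE scaling, under which Plin2 was -0.068. Between the WT and CreCtrl sets they were 0 to 1 with a library left out, 0 by library size alone and 4 by the RPE scaling (Plin2 -0.11). Over all sets the count was 3 in every fit with a library left out and 0 for the Ctrl and CreCtrl sets alone. The KO minus control difference of the median storage ratio in the WT set was -0.03 with Pnpla2 as denominator. It was -0.51 with 4 lipolysis genes (Pnpla2, Lipe, Mgll and Abhd5) as denominator. The denominator is common to the storage genes of a library, so the differences of Plin2, Plin3 and Soat1 moved down by the same amount. A lone library left in a group is assumed to vary like the other groups.

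With the replicate block, 3 members were called against WT (not Plin5), 0 against Ctrl and 1 against CreCtrl (Plin3, 0.67, adjusted p = 0.0328), and the genes called in all were 4857, 113 and 3824. The numbers do not pair the mice by any label, and same-numbered libraries deviated together only weakly (WT set: r -0.015, 0.085 and 0.209; Ctrl set: -0.017; CreCtrl set: 0.073); KO replicate 1 of the WT set was closest to WT replicate 2. With the number in place of the set over 14 libraries, the 3 calls of Plin2, Plin3 and Soat1 were also made.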
